A study of Mus musculus with 2 samples.

Results

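The 5 genes described here, Acta2, Tagln, Myh11, Myl9 and Cnn1, encode contractile proteins of smooth muscle, and were taken by symbol from the 19465 genes of the spatial transcriptomics (ST) count tables of mouse liver. The data were 1 liver section from an AEG-1-WT mouse and 1 from an AEG-1-C75S littermate, in which the codon for the palmitoylated cysteine of AEG-1 was exchanged for serine by CRISPR knock-in in all cells. Both mice were untreated females of 8 weeks, their livers were fixed in formalin and embedded in paraffin, and sections of 5 μm from the same lobe were placed on 10x Visium slides. Pairs of probes that had bound side by side on an RNA were ligated, captured on the barcoded spots under the tissue and counted as unique molecular identifiers (UMIs). A spot collects the RNA of all cells that lie on it, so a spot is a region and not a cell. The 5 genes were chosen with their UMIs in these sections in view, so the ratios below are descriptions. With 1 section per genotype there was no replicate of either genotype, spots were not treated as replicates, no test was possible, and each interval is a 95% interval that covers counting error only.

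Smooth muscle of the liver lies around the branches of the hepatic artery, around the portal vein and, in a thinner layer, around the larger hepatic veins. It contracts when myosin II filaments pull on filaments of smooth muscle actin, after calcium has led to phosphorylation of the myosin regulatory light chain. Serum response factor (SRF), with the coactivators myocardin and the myocardin-related factors, turns on the contractile genes through CArG boxes. Acta2 is also a known marker of stellate cells that have turned into myofibroblasts, so its RNA alone does not name a vessel wall.

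Acta2, the smooth muscle actin of the thin filament, lies at chr19:34240336-34255585 on the minus strand of GRCm38.p6, and Myh11, the smooth muscle myosin heavy chain, at chr16:14194527-14292188 on the minus strand. Myl9, a myosin regulatory light chain, lies at chr2:156775408-156781657 on the plus strand. Tagln, the actin-bundling protein transgelin (SM22α), lies at chr9:45929628-45936058 on the minus strand, and Cnn1, the actin-binding protein calponin 1, at chr9:22099221-22109221 on the plus strand. RefSeq promoter sequences of GRCm38.p6 were given for 3 of the 5 genes, namely Acta2, Myl9 and Cnn1. Because the genes share regulation by SRF in textbooks, the 250 bases before each RefSeq start were searched for CArG-like matches, CCNNNNNNGG with at most 1 of the 6 inner letters other than A or T, a frame that reads the same on both strands. The promoter of Acta2 held 2 matches, that of Myl9 held 2 and that of Cnn1 held 0, against a match in 8.59% of the 32851 promoters of the table. Introns and other bases outside this window were not searched, so the 0 of Cnn1 holds for the window alone. The matches are printed below in capitals with 10 bases on each side, since Acta2 and Myl9 both hold them there and Cnn1 does not.
Acta2, chr19:34255438-34255467, minus strand: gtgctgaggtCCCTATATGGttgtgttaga
Acta2, chr19:34255388-34255417, minus strand: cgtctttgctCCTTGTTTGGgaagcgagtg
Myl9, chr2:156775293-156775322, plus strand: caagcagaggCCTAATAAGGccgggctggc
Myl9, chr2:156775355-156775384, plus strand: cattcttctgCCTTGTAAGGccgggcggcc
The matches of Acta2 began 84 and 34 bases before the RefSeq start, and both lie within the first exon of 1 longer predicted transcript. Those of Myl9 began 161 and 99 bases before the start, outside any RefSeq exon of the gene. The one at 161 bases had no inner letter other than A or T, as in 1.47% of all promoters. For both genes the start of the promoter entry lies inside the gene positions given above, so the distances are not counted from the ends of those positions. A match describes the letters of the genome, which were not measured in these mice, and binding was not measured.

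The spots with at most 50000 UMIs were used, which were 2309 spots of AEG-1-WT with 42246988 UMIs and 2163 spots of AEG-1-C75S with 41674347. The median per spot was 16830 UMIs in AEG-1-WT against 18808 in AEG-1-C75S, and 90% of the spots lay between 11460 and 29951 and between 6599 and 33880 UMIs, respectively. The sections had 1896 spot barcodes in common, from the set that Visium slides share, and spots were kept apart by section. Alb, the defining hepatocyte gene, had 5380256 and 5040590 UMIs. At the limit of 50000 UMIs, the last spot inside held 7 UMIs of the 5 genes in AEG-1-WT against 1 in AEG-1-C75S, and the first spot outside held 0 and 2. Levels are given as CPM, the UMIs of a gene over all UMIs of the same spots, scaled to the same total, and they are compared between sections but not between genes, since the number of probes per gene was not known.

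All 5 genes had fewer UMIs in the AEG-1-C75S section, and Acta2 and Cnn1 stood farthest apart. Acta2 had 396 UMIs in AEG-1-WT (9.37 CPM) against 37 in AEG-1-C75S (0.888 CPM), so that the log2 ratio, always with AEG-1-C75S in the numerator, was -3.40 (interval -3.93 to -2.91). Of the 11998 genes that reached 50 UMIs in the sections together, 4 had a lower ratio than Acta2. As Acta2 was chosen with these UMIs in view, nothing is read from this rank. Myh11, the motor that pulls on that actin, had 166 and 41 UMIs (3.93 and 0.984 CPM), 3.99-fold lower in AEG-1-C75S (2.82 to 5.77). Myl9, whose product is the phosphorylated switch of the motor, had 251 and 105 UMIs (5.94 and 2.52 CPM), a log2 ratio of -1.24 (-1.58 to -0.90). Tagln, which is among the earliest genes of the smooth muscle lineage, had 707 and 290 UMIs (16.7 and 6.96 CPM), a log2 ratio of -1.27 (-1.47 to -1.07). Cnn1, a marker of the fully differentiated contractile state, had 24 UMIs and 1 UMI, which gives a log2 ratio of -4.57 with an interval from -9.93 to -1.95, and it did not reach the minimum of 50 UMIs. The levels by section show the points of the sections apart beyond their counting intervals for each gene, with the widest interval at the single UMI of Cnn1.

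**Figure D1:**
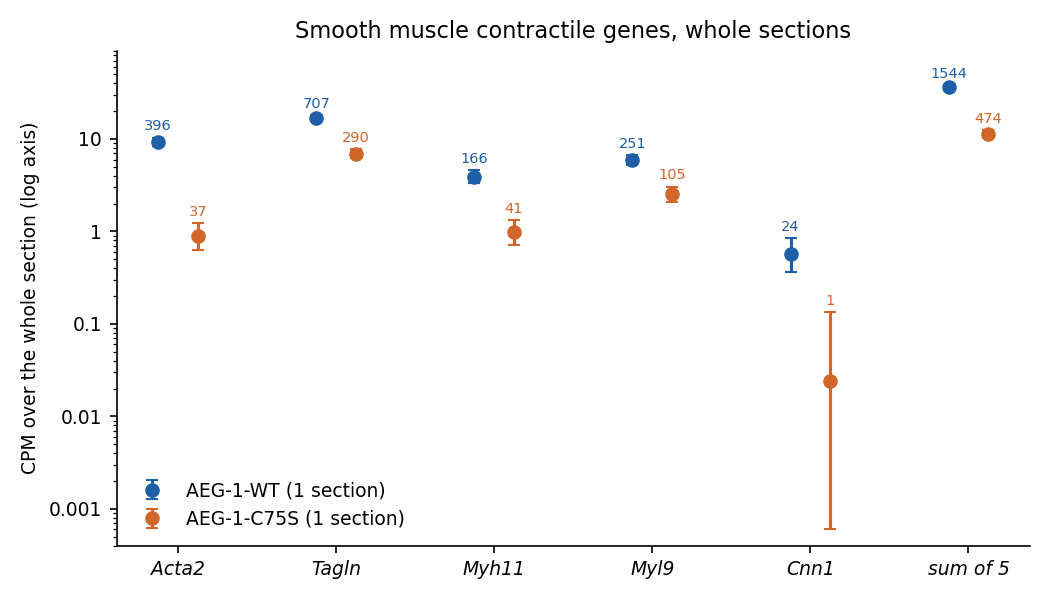
CPM of the 5 contractile genes and of their sum over the whole AEG-1-WT and AEG-1-C75S sections, on a log axis, with 1 section per genotype. Points are CPM, bars are 95% exact Poisson intervals, and the numbers above the points are UMIs. Acta2 stood at 396 against 37 UMIs and Cnn1 at 24 against 1.

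Of the 4 genes that reached 50 UMIs, 4 were more than 1.5-fold lower in AEG-1-C75S, beside 5.2% of all genes in that direction and 2.29% that were more than 1.5-fold higher. These genes were chosen from this contrast, so nothing is read from that count. Summed over the 5 genes there were 1544 UMIs (36.5 CPM) and 474 UMIs (11.4 CPM), a log2 ratio of -1.68 (-1.84 to -1.53). In such sums, fewer smooth muscle cells under the spots and less RNA per cell cannot be told apart, nor can a section that crossed fewer vessels.

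The UMIs of the 5 genes lay differently over the spots of the sections. The highest spot of AEG-1-WT held 126 of the 1544 UMIs, and the highest spot of AEG-1-C75S held 7 of the 474. The 1% of spots with most UMIs held 45.1% of them in AEG-1-WT (24 spots) against 15.6% in AEG-1-C75S (22 spots). After thinning of every spot to 3000 UMIs these shares were 55.6% and 31.8%, in the same order. Thinning left 261 UMIs in AEG-1-WT against 88 in AEG-1-C75S, the latter in 82 spots with at most 2 UMIs each. Such a share rises when few UMIs are left, so the smaller distance is not read as a more alike pattern. The first 50% of the UMIs lay in 36 spots of AEG-1-WT but in 145 spots of AEG-1-C75S. At least 5 UMIs were counted in 42 spots of AEG-1-WT, which together held 804 UMIs or 52.1% of the sum, and in 3 spots of AEG-1-C75S, which held 17 UMIs or 3.59%. At least 10 UMIs were counted in 19 spots of AEG-1-WT but in 0 of 2163 spots of AEG-1-C75S. The limit of 3 counts for a count of 0 allows a share of up to 0.139%, and the exact binomial limit was 0.170%. The AEG-1-WT section had a small set of spots rich in contractile RNA, and no spot of the AEG-1-C75S section came near the richest of them.

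**Figure D2:**
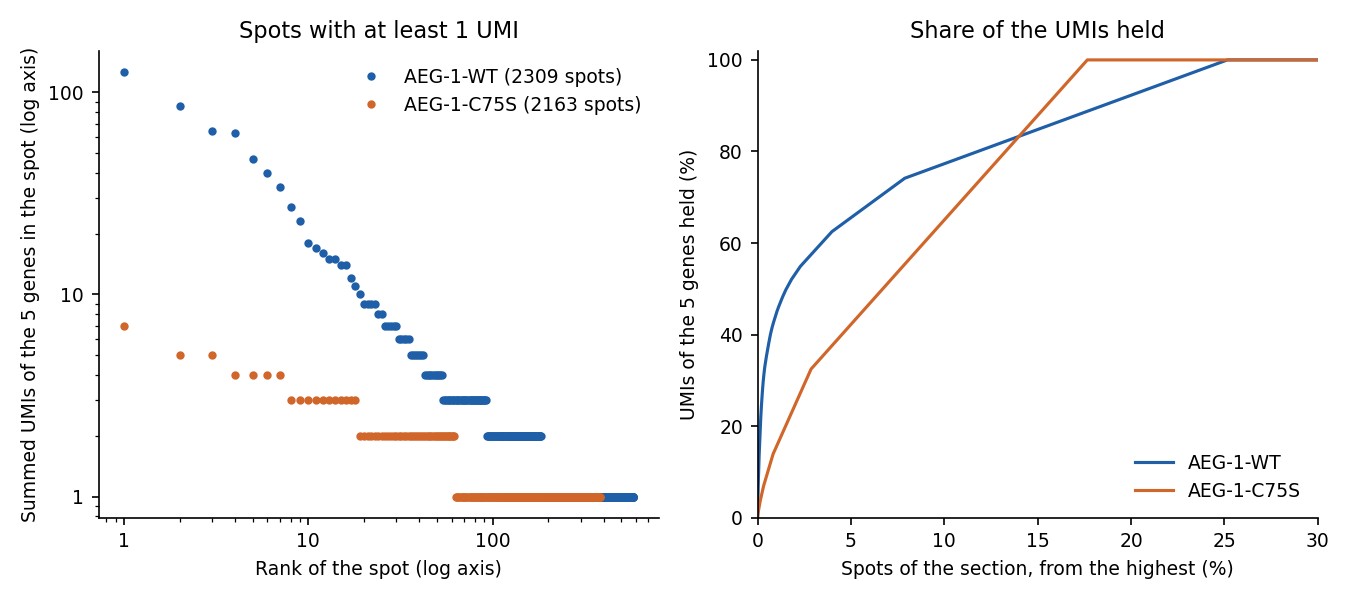
Left, the summed UMIs of the 5 genes in each spot with at least 1 UMI, against the rank of the spot, both on log axes. Right, the share of these UMIs held by the highest spots, up to 30% of the spots of a section. The first 4 AEG-1-WT spots hold 126, 86, 64 and 63 UMIs, and the first AEG-1-C75S spot holds 7. The AEG-1-WT curve rises steeply at first. That of AEG-1-C75S rises less steeply at first and reaches 100% at 17.7% of the spots.

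The remaining UMIs were spread thinly. A UMI of any of the 5 genes was present in 581 spots of AEG-1-WT, or 25.2% (exact binomial interval 23.4% to 27.0%), where the same UMIs spread in proportion to the depth of each spot would have reached 1099 spots. In AEG-1-C75S it was present in 382 spots, or 17.7% (16.1% to 19.3%), where spreading by depth would have reached 418. After thinning of every spot to 3000 UMIs, with 4 and 3 spots too shallow for it, the shares were 6.03% (5.09% to 7.08%) and 3.80% (3.03% to 4.69%), in the same order.

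The spread over spots was measured for each gene as the variance over the mean after allowing for the depth of each spot, which is 1 when UMIs fall by depth alone. In AEG-1-WT it was 18.6 for Acta2, 12.5 for Tagln, 4.73 for Myh11, 3.15 for Myl9 and 1.93 for Cnn1. In AEG-1-C75S it was 1.54 for Acta2, 1.40 for Tagln, 0.918 for Myh11 and 1.15 for Myl9, and the single UMI of Cnn1 gives no spread. The median gene was at 1.01 in AEG-1-WT against 1.02 in AEG-1-C75S. A value above 2 was reached by 1.16% of all genes in AEG-1-WT but by 0.667% in AEG-1-C75S, and by 4 of the 4 contractile genes with at least 50 UMIs in AEG-1-WT but none of the 4 in AEG-1-C75S. These genes were chosen with the spread of their UMIs over these spots in view, so nothing is read from those counts. For the same uneven pattern over spots, this measure falls when a gene has fewer UMIs. All 4 genes had fewer UMIs in AEG-1-C75S, so their lower values there do not by themselves show a more even pattern. The genes above Acta2 in AEG-1-WT were 6 in number, namely Alb, Hbb-bs, Cyp2e1, Ighg2b, Hba-a2 and Col1a2, of which Alb and Cyp2e1 are hepatocyte genes, Hbb-bs and Hba-a2 encode haemoglobin chains, Ighg2b an antibody chain and Col1a2 a chain of collagen I. They were named after their values were seen. The collagen gene had a value of 18.6 in AEG-1-WT against 1.16 in AEG-1-C75S, a pair much like that of Acta2, whereas the haemoglobin genes and Alb were above 10 in both sections.

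**Figure D3:**
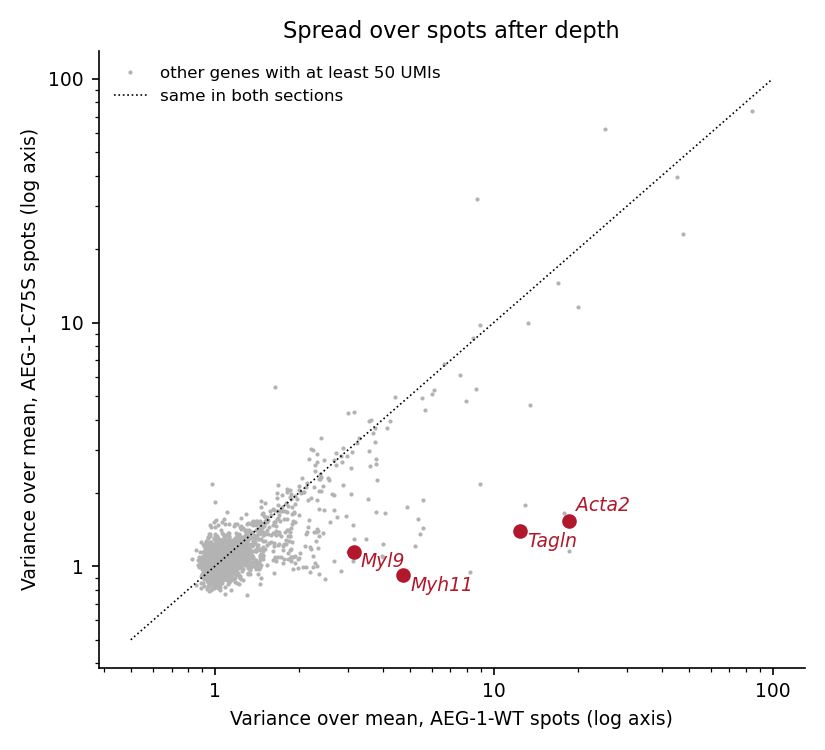
Variance over mean of the depth-scaled UMIs across spots, AEG-1-WT against AEG-1-C75S, for the 11998 genes that reached 50 UMIs, on log axes. Red points are Acta2, Tagln, Myh11 and Myl9, gray points all other genes, and the dotted line marks equal values. The red points lie far to the right and low, from 3.15 to 18.6 in AEG-1-WT and from 0.918 to 1.54 in AEG-1-C75S. The measure also falls with fewer UMIs of a gene, and the red genes had fewer in AEG-1-C75S.

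The richest spots held most of the contractile set at once. The highest spot of AEG-1-WT had 47 UMIs of Acta2, 53 of Tagln, 11 of Myh11, 12 of Myl9 and 3 of Cnn1 among only 8791 UMIs in all. The next had 33, 33, 12, 8 and 0 among 24545, and the ones after it 31, 14, 3, 14 and 2 among 30079 and 21, 24, 10, 7 and 1 among 26551. Beside these stood the thin filament partner Tpm2, a tropomyosin, with 35, 17, 12 and 10 UMIs, and the vessel wall protein Mgp, a matrix protein that limits calcification, with 21, 27, 32 and 30. The highest spot of AEG-1-C75S had 0 UMIs of Acta2, 5 of Tagln, 1 of Myh11, 1 of Myl9 and 0 of Cnn1 among 48756, with 2 of Tpm2 and 0 of Mgp. All 5 genes were present in 7 spots of AEG-1-WT and 4 of the 5 in another 15, against 0 and 0 spots of AEG-1-C75S. In AEG-1-C75S the most that met in a spot were 3 of the genes, in 6 spots. Cnn1 was present in only 1 spot of that section, Acta2 in 34 and Myh11 in 41. The low totals alone thus left little room for spots with 4 or 5 of the genes.

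Across the 2309 spots of AEG-1-WT, pairs of the 5 genes had Pearson correlations of log2(1 + UMIs per 10000) from 0.38 for Myl9 and Cnn1 to 0.64 for Acta2 and Myh11. Across the 2163 spots of AEG-1-C75S the values lay between -0.01 and 0.15, in counts too sparse for a weak correlation to be read. The spots of a section share 1 library, and these values are given as descriptions. Acta2 and Tagln were present together in 78 spots of AEG-1-WT, where independent placement would give 24.4, and in 11 spots of AEG-1-C75S, where it would give 3.90.

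To set levels in the rich spots beside levels everywhere else, the spots of each section were ranked for each gene by the CPM of the other 4, so that the gene measured did not choose the spots. In the highest 2% of spots, 47 in AEG-1-WT against 44 in AEG-1-C75S, Acta2 was at 302 CPM (263 UMIs) and 15.7 CPM (7 UMIs). Myh11 was at 105 and 7.15 CPM (93 and 3 UMIs), and Myl9 at 105 and 4.82 CPM (93 and 2 UMIs). Tagln was at 341 and 24.9 CPM (289 and 13 UMIs), and Cnn1 had 16 and 0 UMIs. The log2 ratios there were -4.27 for Acta2 (-5.59 to -3.20), -3.78 for Tagln (-4.70 to -2.98), -3.87 for Myh11 (-6.17 to -2.28) and -4.45 for Myl9 (-7.51 to -2.55). The spots so chosen differed in depth: the highest 2% by all 5 genes had a median of 18445 UMIs in AEG-1-WT against 7224 in AEG-1-C75S, and the other spots had 16797 and 19019. In AEG-1-C75S a spot could rank among the highest with 1 UMI of the 5 genes, and in AEG-1-WT the lowest count in such a spot was 3.

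Outside the highest 2% of spots the gap between the sections was smaller, and it was uneven among the genes. Acta2 was at 3.21 CPM in AEG-1-WT (133 UMIs) against 0.728 CPM in AEG-1-C75S (30 UMIs), a log2 ratio of -2.14 (-2.77 to -1.56). Myh11 was at 1.77 and 0.921 CPM (73 and 38 UMIs), a ratio of -0.94 (-1.54 to -0.35). Myl9 was at 3.82 and 2.50 CPM (158 and 103 UMIs), a ratio of -0.61 (-0.99 to -0.25). Tagln was at 10.1 and 6.73 CPM (418 and 277 UMIs), a ratio of -0.58 (-0.81 to -0.36), and Cnn1 had 8 UMIs and 1 UMI. Summed over the 5 genes, 790 and 449 UMIs lay outside (19.1 and 10.9 CPM), a ratio of -0.81 (-0.98 to -0.64) in place of -1.68 over the whole sections. More than 1.5-fold lower outside these spots were Acta2, Myh11 and Myl9, with Tagln just short of that size. When the highest 2% of spots by all 5 genes were left out, 4.47% of all genes were lower and 2.68% higher by that size. The 5 genes were chosen with their UMIs in these sections in view, so nothing is read from that count.

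In the lower 50% of spots, which by the rank held no UMI of the other 4 genes, Myl9 was at 2.84 and 2.19 CPM, a log2 ratio of -0.37 with an interval from -0.91 to 0.15, and Myh11 at 1.12 and 0.916 CPM, a ratio of -0.29 with an interval from -1.15 to 0.57. For these genes a difference was not detectable at this depth. Tagln was at 7.94 and 5.54 CPM (194 and 151 UMIs), a ratio of -0.52 (-0.83 to -0.20), while in the spots ranked from 10% to 50% it was at 10.3 and 8.26 CPM, a ratio of -0.32 with an interval from -0.72 to 0.08. For Tagln, that class held 99 UMIs of the other 4 genes in AEG-1-WT but 0 in AEG-1-C75S, where its spots were ordered by depth alone. Acta2 was at 1.84 and 0.537 CPM (43 and 14 UMIs), a ratio of -1.78 (-2.76 to -0.88), so among the 4 genes Acta2 had the lowest ratio in this class of spots too.

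**Figure D4:**
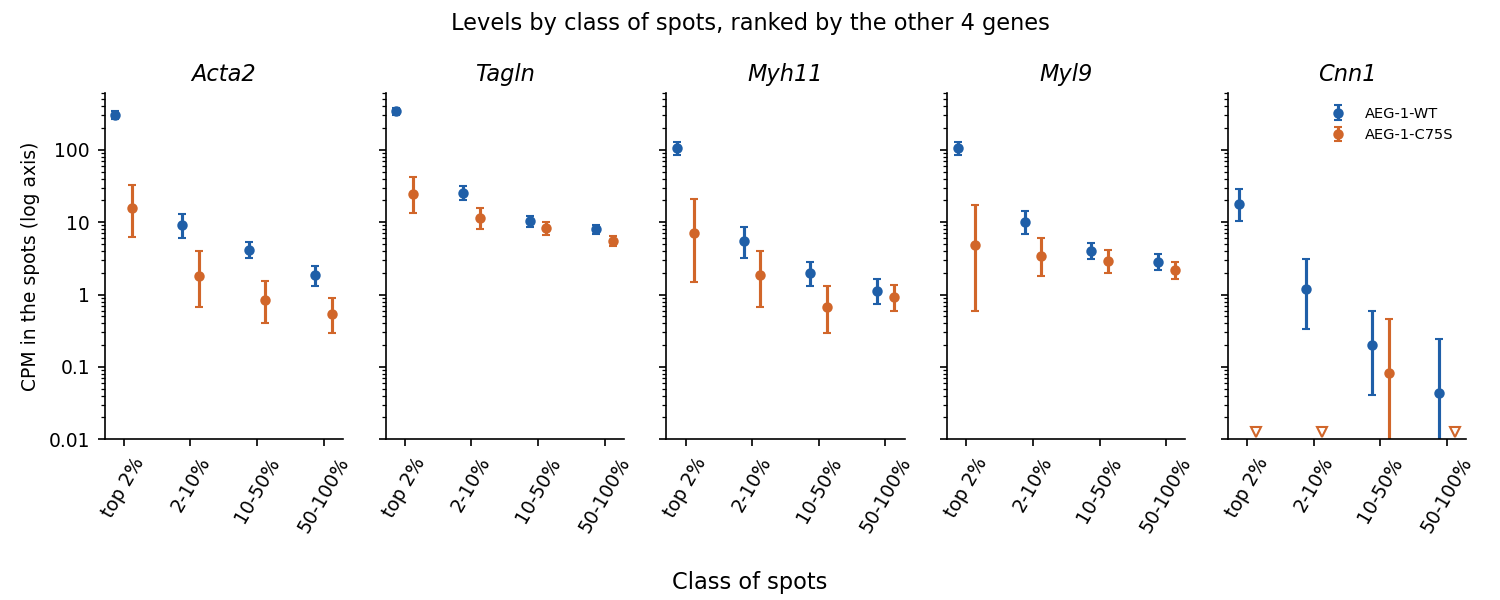
CPM of each gene, on a log axis, in 4 classes of spots ranked by the CPM of the other 4 genes, in each section. Points are CPM with 95% exact Poisson intervals, and open triangles at the foot mark classes with 0 UMIs. In the highest 2% of spots the sections are farthest apart, at 302 against 15.7 CPM for Acta2, and in the lower 50% the intervals of Myh11 and Myl9 overlap. Spots without a UMI of the other 4 genes were ordered by fewer UMIs in all, so the lower classes also differ in depth.

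The place of the spots along the lobule was read from hepatocyte genes alone, as the log2 ratio of pericentral (Cyp2e1, Cyp1a2 and Oat) over periportal (Pck1, Hal, Gls2, Cyp2f2, Hsd17b13 and Arg1) CPM, in 5 bins of equal size set over both sections and numbered from the periportal end. In bin 1, the summed contractile genes were at 42.5 CPM in AEG-1-WT against 15.9 in AEG-1-C75S, and in bin 2 at 89.1 and 14.3. In bin 3 they were at 23.6 and 8.20 CPM. In bins 4 and 5 they were at 13.1 and 8.69 and at 15.2 and 10.4 CPM, the smallest gaps, with log2 ratios of -0.59 (-1.04 to -0.15) and -0.54 (-0.96 to -0.14). Of the 42 AEG-1-WT spots with at least 5 UMIs, 15 lay in bin 1, 19 in bin 2, 7 in bin 3, 0 in bin 4 and 1 in bin 5, the most pericentral. The 3 such spots of AEG-1-C75S lay 2 in bin 1 and 1 in bin 2.

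The genes differed along this axis. Tagln had 59 and 59 UMIs in bin 5, at 7.54 and 6.91 CPM, a log2 ratio of -0.13 (-0.67 to 0.42), while in bin 2 it had 299 and 93 UMIs, a ratio of -1.95 (-2.30 to -1.61). Acta2 had 227 and 5 UMIs in bin 2 (28.4 and 0.521 CPM), and 17 and 4 in bin 5. Its log2 ratio lay between -5.77 and -1.89 in the 5 bins, with intervals that did not reach 0. With bins set within each section, the summed genes of AEG-1-WT had a log2 ratio of bin 1 over bin 3 of 0.18 (-0.04 to 0.40) in place of 0.85, so their higher level in bin 1 than in bin 3 depended on how the bins were set. Bin 1 held 537 spots of AEG-1-WT against 358 of AEG-1-C75S.

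Genes of connective tissue and larger vessels, and less strongly those of bile ducts, marked the rich spots of AEG-1-WT. Among the 47 AEG-1-WT spots in the highest 2% by all 5 genes, 40 had a UMI of Mgp, 29 of Vwf, the von Willebrand factor of the endothelium of larger vessels, and 44 of the bile duct genes Spp1 or Epcam. Over all AEG-1-WT spots the shares were 15.6%, 17.6% and 53.2%. Rspo3, a gene of the central vein endothelium, was present in 12 of the 47, where 25.2% of all spots had it. Of the 44 such spots of AEG-1-C75S, 11 had a UMI of Mgp, 12 of Vwf, 29 of Spp1 or Epcam and 9 of Rspo3, beside 10.4%, 16.3%, 54.2% and 28.6% of all spots, though these spots were shallower. Spots were also ranked by other genes. In AEG-1-WT, the highest 2% by connective tissue genes held 50.1% of the summed contractile UMIs. By large vessel endothelium genes they held 32.7%, and by bile duct genes 7.58%. In AEG-1-C75S these shares were 9.07%, 2.53% and 13.1%. Tissue images and the positions of spots on the slide were not used here, so no vessel was seen.

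By likeness, the lower of the correlations in the sections across spots with the summed contractile genes, the first 10 of 9025 genes with at least 200 UMIs in each section were Spp1, Mgp, Gsn, Col1a1, Tns1, S100a6, Col3a1, Dpt, Gas6 and Col1a2. Spp1, which encodes osteopontin of bile duct cells, had 0.29 in AEG-1-WT against 0.27 in AEG-1-C75S. Mgp had 0.58 and 0.19, the highest value in AEG-1-WT, followed there by Dpt, a matrix protein gene, at 0.55, the actin-severing Gsn at 0.54 and Col1a1 at 0.53. The median gene was at 0.02 in AEG-1-WT against -0.0018 in AEG-1-C75S. These values come from spots that share 1 library and its depth.

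Most of the other listed contractile genes of smooth muscle that reached 50 UMIs differed by less than 1.5-fold between the sections. Of 22 genes listed, 21 were measured, 18 reached 50 UMIs, and 4 of these were more than 1.5-fold lower and 0 more than 1.5-fold higher, with a median log2 ratio of -0.08 beside -0.05 for all genes. Of all genes, 5.2% were lower and 2.29% higher by that size. With a minimum of 10 UMIs the lower genes were 7 of 21, and with a minimum of 200 UMIs 1 of 14. The 4 lower ones were Actg2, the enteric smooth muscle actin (48 and 9 UMIs, log2 ratio -2.40, interval -3.61 to -1.35), the actin filament nucleator Lmod1 (76 and 23, -1.70, -2.45 to -1.02), the actin-binding Synpo2 (49 and 13, -1.89, -2.90 to -0.99) and Tpm2 (1087 and 599, -0.84, -0.99 to -0.69). Actg2, Lmod1 and Synpo2 reached the minimum through AEG-1-WT, where they are high, and would not have reached it at their AEG-1-C75S counts, so the number of lower genes is no support for a difference. The genes with most UMIs in the list were near equal, with Cald1, a calcium-dependent brake on the motor, at 7408 and 7832 UMIs (0.10), the crosslinker Actn1 at 2383 and 2439 (0.05) and Tpm1 at 1851 and 2079 (0.19). Des, an intermediate filament that stellate cells also make, named here after its values were seen, had 589 and 596 UMIs (0.04). The lower genes added with the minimum of 10 UMIs were Pdlim3 (31 and 11 UMIs), Pln (20 and 0) and Kcnmb1 (15 and 5). They too were named after their values were seen.

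For 3 of the 4 lower genes, the UMIs of AEG-1-WT lay in the rich spots about as often as those of the 5 contractile genes. The highest 2% of AEG-1-WT spots held 60.4% of the UMIs of Actg2, 51.3% of those of Lmod1 and 49.0% of those of Synpo2. The share was 17.0% for Tpm2, close to the 16.6% of Des, and lower for Tpm1 (10.6%), Actn1 (4.36%) and Cald1 (3.24%). The near-equal ratios of Des, Tpm1, Actn1 and Cald1 thus rest mostly on other spots. For Pln, Pdlim3 and Kcnmb1 the share was 80%, 71.0% and 60%, from few UMIs. For the 5 contractile genes together the share was 52.5%, in spots that they themselves chose. With these spots left out, Tpm2 had 902 and 586 UMIs, a log2 ratio of -0.62 (-0.77 to -0.47). Lmod1 had 37 and 23, a ratio of -0.68 whose interval from -1.50 to 0.11 includes 0. Actg2 had 19 and 7 (-1.44, -2.93 to -0.12) and Synpo2 25 and 12 (-1.05, -2.18 to -0.01), both under 50 UMIs there.

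Pericytes are the contractile cells of the smallest vessels and share part of the smooth muscle programme. Of 8 mural cell and pericyte genes, 7 reached 50 UMIs, 1 was more than 1.5-fold lower and 0 were higher, with a median log2 ratio of 0.17. By that size 5.2% of all genes were lower and 2.29% higher, and nothing is read from counts of 1 gene. The lower one was the receptor Notch3, with 90 and 58 UMIs (-0.61, interval -1.12 to -0.12). The pericyte gene Rgs5 had 1070 and 1097 UMIs (0.06), and the channel genes Abcc9 and Kcnj8 had 1569 and 1874 (0.28) and 354 and 402 (0.20). Regulators and receptors of smooth muscle were measured for 16 of 18 genes, and 15 reached 50 UMIs, with 0 lower and 1 higher, at a median of 0.02. The higher one was Gucy1a1, a subunit of the nitric oxide receptor, with 397 and 614 UMIs (0.65, interval 0.46 to 0.83). The angiotensin receptor gene Agtr1a, Tgfb1 and the TGF-β receptor gene Tgfbr2, which had most UMIs, stood at 0.31, 0.26 and 0.04. Srf and Myocd, the gene of myocardin, both named after their values were seen, had 548 and 548 UMIs and only 12 and 3.

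Of 10 paralogs of the 5 genes, most of them expressed in many cell types, 8 were measured, and of these 1 was more than 1.5-fold lower and 0 were higher, with a median log2 ratio of 0.01. Of all genes, 5.2% were lower by that size and 2.29% higher. Actb, the cytoplasmic actin, had 13090 and 16258 UMIs (log2 ratio 0.33), and Myl12a, a light chain close to Myl9, had 3075 and 3105 (0.03). The non-muscle myosin heavy chain gene Myh9 had 3916 and 3840 UMIs (-0.01), and its relative Myh10 had 504 and 314 (-0.66, interval -0.87 to -0.46). Tagln2 had 2676 and 2760 UMIs (0.06), Tagln3 40 and 27 (-0.55, interval -1.31 to 0.19), Cnn2 987 and 1039 (0.09) and Cnn3 4489 and 3389 (-0.39). Over bases aligned without a gap, the coding sequences of the 5 genes were 69.6% to 85.5% identical to those of these relatives and of Actg2 and Acta1 (GENCODE vM21). The highest values were those of Myl9 and Myl12a and of Acta2 and Acta1. Gaps, from 0 to 190 positions per pair, were left out, so identity over a full alignment with gaps is lower. How far a probe for 1 actin or light chain could bind another was not known, as the probe sequences were not used here.

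Markers of other cells moved with the contractile genes in part. Of 12 genes of portal fibroblasts and connective tissue, all reached 50 UMIs and 9 were more than 1.5-fold lower in AEG-1-C75S, with a median log2 ratio of -0.89 and none higher, and their summed level was 251 CPM in AEG-1-WT against 142 CPM in AEG-1-C75S. Of all genes, 5.2% were lower and 2.29% higher by that size, which also stands beside the counts of the lists that follow. As the lists were chosen with earlier results of these data known, nothing is read from these counts. Fbln1, of the fibulins of elastic tissue, was at -1.89, Col1a1 at -1.58, Mgp at -1.51 and Dpt at -1.48, whereas Col3a1 was at -0.68, Col1a2 at -0.77 and Lum, a collagen-binding proteoglycan, at 0.21. The highest 2% of AEG-1-WT spots held 32.6% of the UMIs of this list. With the highest 2% of each section left out, 6 of the 12 were still lower, at a median of -0.54, beside 4.47% of all genes. The 8 genes of arterial and large vessel endothelium had 0 lower and 0 higher (153 and 152 CPM summed). Cdh5 alone gave 70.0 and 72.8 CPM, and the highest 2% of AEG-1-WT spots held 5.21% of the UMIs of the list. The near-equal sums thus rest mostly on other spots. Cdh5 was at 0.06, Gja4 at 0.15 and Cldn5 at -0.11. Vwf, named after its values were seen, was at -0.46 (interval -0.64 to -0.28). Gja5 at -0.26 and Sox17 at -0.22, named likewise, had intervals that include 0. The 5 genes of central vein endothelium also had 0 lower and 0 higher (39.0 and 40.2 CPM). Of 5 bile duct genes, 2 were lower, Krt7 at -1.06 and Krt19 at -0.69 (129 and 96.6 CPM summed), and of 4 red blood cell genes 2 were lower, Hba-a2 at -0.61 and Hbb-bs at -0.60 (627 and 416 CPM). No marker of these lists was at 0 in either section, and their part in the lower contractile counts was not tested.

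**Figure D5:**
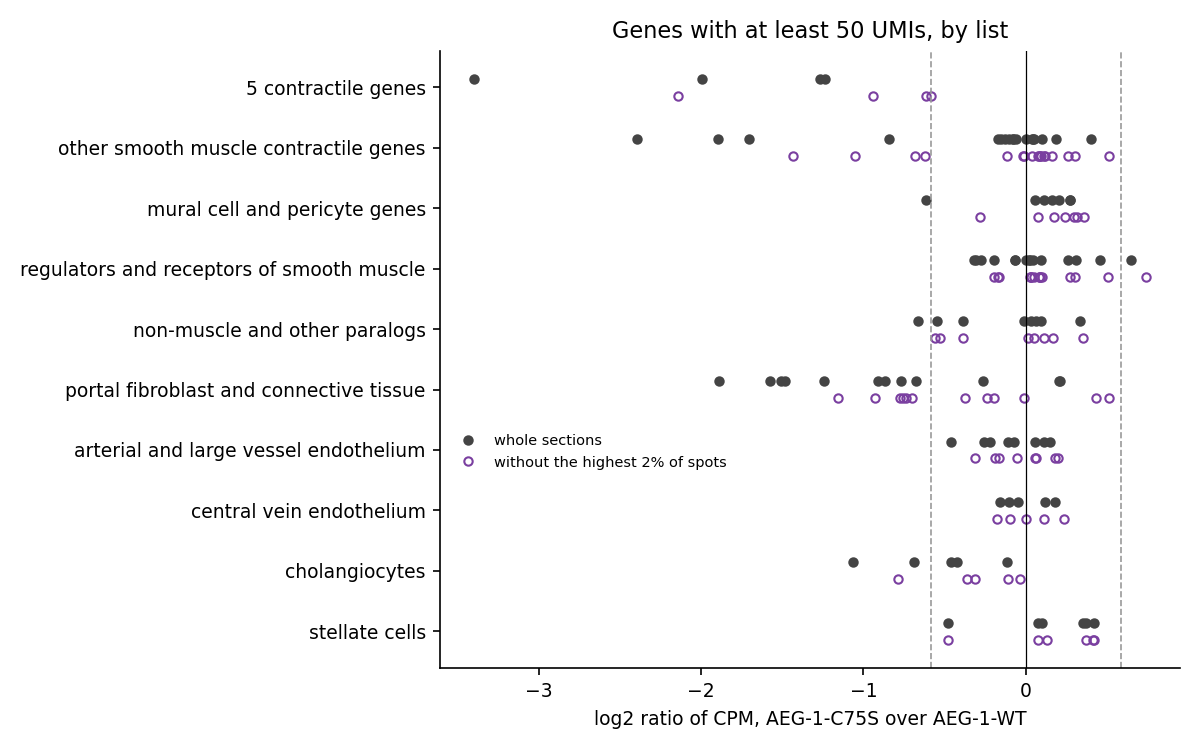
log2 ratio of CPM, AEG-1-C75S over AEG-1-WT, for genes with at least 50 UMIs in 10 lists, over the whole sections (filled) and without the highest 2% of spots by the contractile genes (open, for the contractile genes by the other 4). Dashed lines mark 1.5-fold. The contractile genes lie from -3.40 to -1.24 over the whole sections, and connective tissue genes reach -1.89, while pericyte, endothelial and stellate cell genes lie within 1.5-fold, except Notch3 at -0.61.

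Stellate cells are another known source of Acta2, and not the only one. Of 6 stellate cell genes, 0 were more than 1.5-fold lower or higher (606 and 751 CPM summed), with a median of 0.23, beside 5.2% of all genes lower and 2.29% higher. Ecm1, which alone gave 279 and 374 CPM, was at 0.42, Dcn at 0.35 and Colec11 at 0.07. Lrat, named after its values were seen, went the other way with 1209 and 855 UMIs (-0.48, interval -0.61 to -0.35). Of 5 genes of activated stellate cells and myofibroblasts, 3 reached 50 UMIs, 0 were lower or higher (23.9 and 23.1 CPM summed), and Timp1 and Lox, the other 2, also named after their values were seen, had only 6 and 3 and 5 and 3 UMIs. Striated muscle, which a section can touch at the diaphragm, had 4.99 and 4.46 CPM in sum over 12 measured genes, with Acta1, Myh1 and Myh4 at 0 in both sections. Mesothelium, the cover of the liver, had 2.94 and 1.82 CPM over 6 genes, with Wt1 at 0 in both sections. Of these 6 only Gpm6a reached 50 UMIs, with 105 and 62, a log2 ratio of -0.74 (-1.22 to -0.27). The highest 2% of AEG-1-WT spots held 22.6% of the UMIs of the list. Msln, named after its values were seen, had 11 and 3 UMIs, and those AEG-1-WT spots held 9 of the 11. Upk3b had 0 and 2 UMIs, Upk1b 0 and 1, and Lrrn4 8 and 8. Without spots with 2 or more striated muscle or mesothelium markers, the summed contractile genes had a log2 ratio of -1.67 (-1.82 to -1.52), beside -1.68 with them. Spots with fewer of these markers were kept, and the part of mesothelium in the lower contractile counts was not tested further.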

How the data were processed

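Per the labels, the authors ran Space Ranger 2.0.1 on mm10, and the deposited files give raw UMI counts for 19465 genes at each spot under tissue. These counts were not normalized. The files held 0 columns from other samples. Where a symbol was listed again (11 symbols), its first row was taken. Spots with more than 50000 UMIs were left out, as in the methods, and no spot kept had fewer than 100 or more than 7000 genes.

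UMIs were summed and divided by the total of the same spots as CPM with pandas 2.3.3, numpy 2.4.6 and scipy 1.17.1 (python 3.11.15). Intervals were exact Poisson for sums, exact binomial (Clopper-Pearson) for shares and, for log2 ratios, from the binomial interval of both sums, at 95%. Where a count was 0, the limit was 3 counts. TMM factors came from edgeR 4.0.16. Alignments used biopython 1.88 on GENCODE vM21 coding sequences. Scripts were tested on simulated counts. Figures were drawn with matplotlib 3.10.9.

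The 5 genes and the 17 other lists were chosen with earlier results of these data known. Genes were named by a rule: the 5 genes, the 10 of highest likeness, the paralogs, and from each list the 3 genes with most UMIs and up to 5 past 1.5-fold, among those with at least 50 UMIs. Not every gene that this rule allows is named, and the lists of Kupffer cells and sinusoidal endothelium are not described. Some listed genes were not analysed here. Alternatives covered the spot filter, scaling, depth, the share and rank of rich spots, bins of the lobule axis and thresholds.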

Additional observations from a re-analysis of the deposited data

Results flagged for a closer look

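The 11 spots with more than 50000 UMIs, which the comparisons left out, also held UMIs of the 5 contractile genes. The 7 such spots of AEG-1-WT held 10 UMIs of them (exact Poisson interval 4.80 to 18.4), or 26.9 CPM, of which 5 were of Tagln, 3 of Myh11, 1 of Acta2 and 1 of Myl9. The 4 such spots of AEG-1-C75S held 7 UMIs (2.81 to 14.4), or 32.1 CPM, of which 5 were of Tagln, 1 of Acta2 and 1 of Myh11. In both sections the count was above the 3 counts that a count of 0 allows. The spots that were used were at 36.5 CPM in AEG-1-WT, above the spots left out, and at 11.4 CPM in AEG-1-C75S, below them.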

How the results depend on the processing

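With the summed contractile genes at a log2 ratio of -1.68 over the whole sections, no spot filter, equal weight per spot, TMM factors, centring on the median gene, leaving the 20 most abundant genes out of the totals and leaving out the single highest spot kept the value within its counting interval. Leaving out spots with 2 or more striated muscle or mesothelium markers gave -1.67, also within it. The values that moved were -1.47 when each spot was thinned to 3000 UMIs, -1.06 and -0.96 without the 1% and the 5% of spots with most UMIs, and -0.70 without spots with at least 5 UMIs, a setting chosen after seeing the data. Matching spots on total UMIs in 10 bins gave -2.67, which rests on 1 spot: the highest AEG-1-WT spot lies in the lowest bin of depth, where 40 spots of its section lie beside 409 of the other, and without it (also chosen after seeing the data) the value was -1.62. Each of the 5 genes stayed below 0 in every setting that gave a value. The values lay from -4.57 to -1.77 for Acta2, from -3.04 to -0.77 for Myh11 and from -1.86 to -0.59 for Myl9. They lay from -2.17 to -0.50 for Tagln and from -5.66 to -2.49 for Cnn1, which gave no value without the highest 5% of spots. The -2.49 of Cnn1 came from thinning, which left 6 UMIs and 1 UMI, and its interval from -8.01 to 0.55 includes 0. The share of UMIs in the highest 1% of spots, 45.1% in AEG-1-WT against 15.6% in AEG-1-C75S, was 55.6% and 31.8% after thinning, which left few UMIs and so raises such a share. The highest 5% held 65.6% and 42.4% without thinning. Outside the rich spots, the ratio of -0.81 stayed between -0.92 and -0.73 under 7 alternatives, of which ranking spots by the other smooth muscle genes and by the connective tissue genes were chosen after seeing the data. In AEG-1-WT the log2 ratio of the most periportal bin over the middle bin was 0.85, but 0.18 with bins set within the section and 0.22 without the highest 2% of spots by connective tissue genes, and in AEG-1-C75S it was 0.95 and stayed between 0.68 and 0.95. The 4 lower genes among the other contractile genes were 7 with a minimum of 10 UMIs and 1 with a minimum of 200. No paired analysis was possible because each genotype had 1 section, and leaving out a replicate was not possible for the same reason. The low counts limit Cnn1 and all levels of AEG-1-C75S in the richest spots.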
